A study of Mus musculus with 6 samples.

Results

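The Ms4a gene cluster of mouse chromosome 19 was described here through 9 of its genes, Ms4a1, Ms4a2, Ms4a4b, Ms4a4c, Ms4a5, Ms4a6b, Ms4a6c, Ms4a6d and Ms4a7, out of 21887 protein-coding genes in the gene table and 21 whose symbol starts with Ms4a. The genes were chosen by name, and every ATAC-seq peak in a gene or within 20 kb of it was taken from the 6 deposited lists. Merged, these peaks made 35 union regions, out of 70174 in the whole genome. The gene bodies ran from chr19:11249679-11623790 (mm10), a stretch of 374 kb that also holds Ms4a14, Ms4a4a and Ms4a4d of the same family.

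ATAC-seq uses the Tn5 transposase to cut and tag accessible DNA, and here it was applied to immature B cells sorted from the spleen as B220+CD93+. All mice carried Tcrd-GDL, a reporter allele in the T cell receptor δ locus that places the diphtheria toxin receptor on γδ T cells, so that diphtheria toxin (DTx) removes them. The 3 DTx libraries came from mice given 2 intraperitoneal doses of 15 ng of DTx per gram of body weight, 48 h apart, and analysed on day 8 after the first dose. The 3 untreated libraries came from mice of the same strain without toxin, and the question was how open chromatin of immature B cells compares without and with γδ T cells. No toxin-treated mice without the reporter were among the samples, so depletion and any other effect of the toxin cannot be told apart, and the labels give no age, sex or pooling of mice. They do not say either that each library is from its own mouse, so a p-value here measures only how these samples spread, and that spread may be technical.

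The Ms4a genes encode small proteins that cross the cell membrane several times, with both ends in the cytoplasm, and most are expressed in one or a few blood cell types. Ms4a1 encodes CD20, a surface protein of B cells that associates with the B cell receptor and is the target of therapeutic antibodies. Ms4a2 encodes the β chain of the high-affinity IgE receptor of mast cells and basophils, Ms4a4b and Ms4a6b are best known from T cells, and Ms4a7, Ms4a6c and Ms4a6d from macrophages and other myeloid cells. The human MS4A5 is known mainly from testis.

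Promoter windows, from 250 bases before to 50 bases after a start site, were matched by symbol to the RefSeq sequences of GRCm38.p6, the same build as mm10. The table held 8 windows for 7 of the 9 genes, all but Ms4a1 and Ms4a6d. Across the genome 34.0% of 32851 windows lay under a peak in all 6 libraries. Of the 8 windows of the cluster, 4 did so and 4 lay under a peak in none. The first pair shown is Ms4a4c (chr19:11407411-11407710, plus strand) and Ms4a4b (chr19:11443308-11443607, plus strand), which share most of their sequence and differed in whether a peak was called. Capitals mark runs of at least 12 bases that are identical in the pair.
Ms4a4c: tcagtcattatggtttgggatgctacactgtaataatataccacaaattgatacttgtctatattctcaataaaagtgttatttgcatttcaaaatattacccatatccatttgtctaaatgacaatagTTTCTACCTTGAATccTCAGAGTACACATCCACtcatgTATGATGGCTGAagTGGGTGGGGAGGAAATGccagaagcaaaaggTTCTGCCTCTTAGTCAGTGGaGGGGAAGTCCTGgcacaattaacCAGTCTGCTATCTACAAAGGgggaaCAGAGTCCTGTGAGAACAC
Ms4a4b: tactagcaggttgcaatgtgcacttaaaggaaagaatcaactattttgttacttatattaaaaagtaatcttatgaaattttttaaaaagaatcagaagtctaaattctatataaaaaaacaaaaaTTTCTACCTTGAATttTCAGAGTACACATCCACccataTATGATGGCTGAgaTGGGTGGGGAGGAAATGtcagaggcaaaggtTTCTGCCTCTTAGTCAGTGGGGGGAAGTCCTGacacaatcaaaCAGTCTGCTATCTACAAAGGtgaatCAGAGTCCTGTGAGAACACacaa
A local alignment of this pair covered 178 columns, of which 159 (89.3%) were identical, and the longest identical run was 20 bases. In the DTx libraries 172, 300 and 300 of the 300 bases of the Ms4a4c window were under a peak, against 300, 300 and 244 in the untreated libraries. The Ms4a4b window had 0 bases under a peak in all 6 libraries. How reads that map to both copies were treated is not given in the sources used here, and their part in this difference was not tested.

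The second pair, Ms4a6c (chr19:11469118-11469417, plus strand) and Ms4a6b (chr19:11518309-11518608, plus strand), is shown because the windows are alike and both were under a peak in every library. Capitals again mark shared runs of at least 12 bases.
Ms4a6c: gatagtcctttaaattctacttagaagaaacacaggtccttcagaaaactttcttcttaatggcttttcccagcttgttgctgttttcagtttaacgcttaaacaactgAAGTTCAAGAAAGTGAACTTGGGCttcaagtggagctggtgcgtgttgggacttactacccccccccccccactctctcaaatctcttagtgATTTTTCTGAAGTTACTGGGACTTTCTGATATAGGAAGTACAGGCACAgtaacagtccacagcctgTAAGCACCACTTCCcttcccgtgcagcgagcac
Ms4a6b: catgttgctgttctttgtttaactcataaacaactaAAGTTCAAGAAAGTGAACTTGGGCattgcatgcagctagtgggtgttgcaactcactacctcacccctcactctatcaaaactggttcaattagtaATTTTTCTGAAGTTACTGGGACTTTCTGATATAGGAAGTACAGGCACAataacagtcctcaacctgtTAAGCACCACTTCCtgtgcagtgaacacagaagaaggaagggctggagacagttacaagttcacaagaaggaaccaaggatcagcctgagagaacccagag
The alignment covered 234 columns with 193 identical (82.5%), and it held the longest shared run of the cluster, 48 bases. Peaks covered only the end of the Ms4a6c window, between 57 and 88 bases, while they covered 194, 207 and 300 bases of the Ms4a6b window in the DTx libraries and 138, 157 and 207 in the untreated libraries. Among the other pairs of the 28 compared, the alignment of highest score spanned 28 columns.

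The remaining window under a peak in 6 of 6 libraries was that of Ms4a7 (chr19:11336097-11336396, minus strand), shown with its match to GAGGAA, the core bound by the ETS factor PU.1, in capitals.
Ms4a7: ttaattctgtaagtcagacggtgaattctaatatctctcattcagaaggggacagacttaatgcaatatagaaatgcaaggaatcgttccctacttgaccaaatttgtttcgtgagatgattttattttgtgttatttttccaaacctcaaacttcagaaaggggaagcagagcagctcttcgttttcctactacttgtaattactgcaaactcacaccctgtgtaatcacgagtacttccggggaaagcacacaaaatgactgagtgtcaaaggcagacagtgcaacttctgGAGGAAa
Each window was searched on both strands for 4 short motifs. GAGGAA was present in 28.3% of all windows of this length, the octamer-like ATGCAAA in 4.63%, the EBF1-like CCCNNGGG in 13.7% and TATAAA in 13.6%. GAGGAA began at base 294 of this Ms4a7 window, base 190 of Ms4a4c and base 187 of Ms4a4b, that is, in windows with and without a peak. ATGCAAA was found on the opposite strand of the Ms4a4c window at bases 82 to 88 and in a second Ms4a7 window that lay under no peak, and TATAAA in the Ms4a4b window alone. No window of the cluster held CCCNNGGG, and the windows of Ms4a5, Ms4a6c, Ms4a6b and Ms4a2 held none of the searched motifs. These letters are described only and mark no bound site. The windows of the cluster had between 31.7% and 45.0% G and C, against a median of 61.7% over windows under a peak in all 6 libraries and 48.0% over windows under none.

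The lists held 44661, 56266 and 60811 peaks for DTx libraries 1, 2 and 3, against 36760, 42504 and 56503 for untreated libraries 1, 2 and 3. DTx 1 and untreated 3 had the layout of the caller's narrow mode and the other 4 lists that of its broad mode, so differences between the groups are also given by mode. Read totals are not given, so depth is unknown, and only list length and the read coverage of the peaks carry a trace of it. The 8 B lineage markers reported here each had a peak within 1 kb of a gene end in every library. The numbers of markers of other cells with such a peak were 2 to 4 of 7 in DTx and 2 to 3 of 7 in untreated libraries for T cells, and 2 to 3 of 7 in both groups for myeloid cells. For mast cells and basophils it was 1 of 7, and for erythroid cells 3 of 4, in every library. Cd3e, Cd8a and Trdc, Lyz2, Mpo, Adgre1 and Csf3r, Kit, Cpa3, Fcer1a, Gata2, Mcpt8 and Tpsb2, and Gata1 had no such peak in any library. A peak in a bulk library does not tell a site open in few cells from one opened a little in many.

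**Figure D1:**
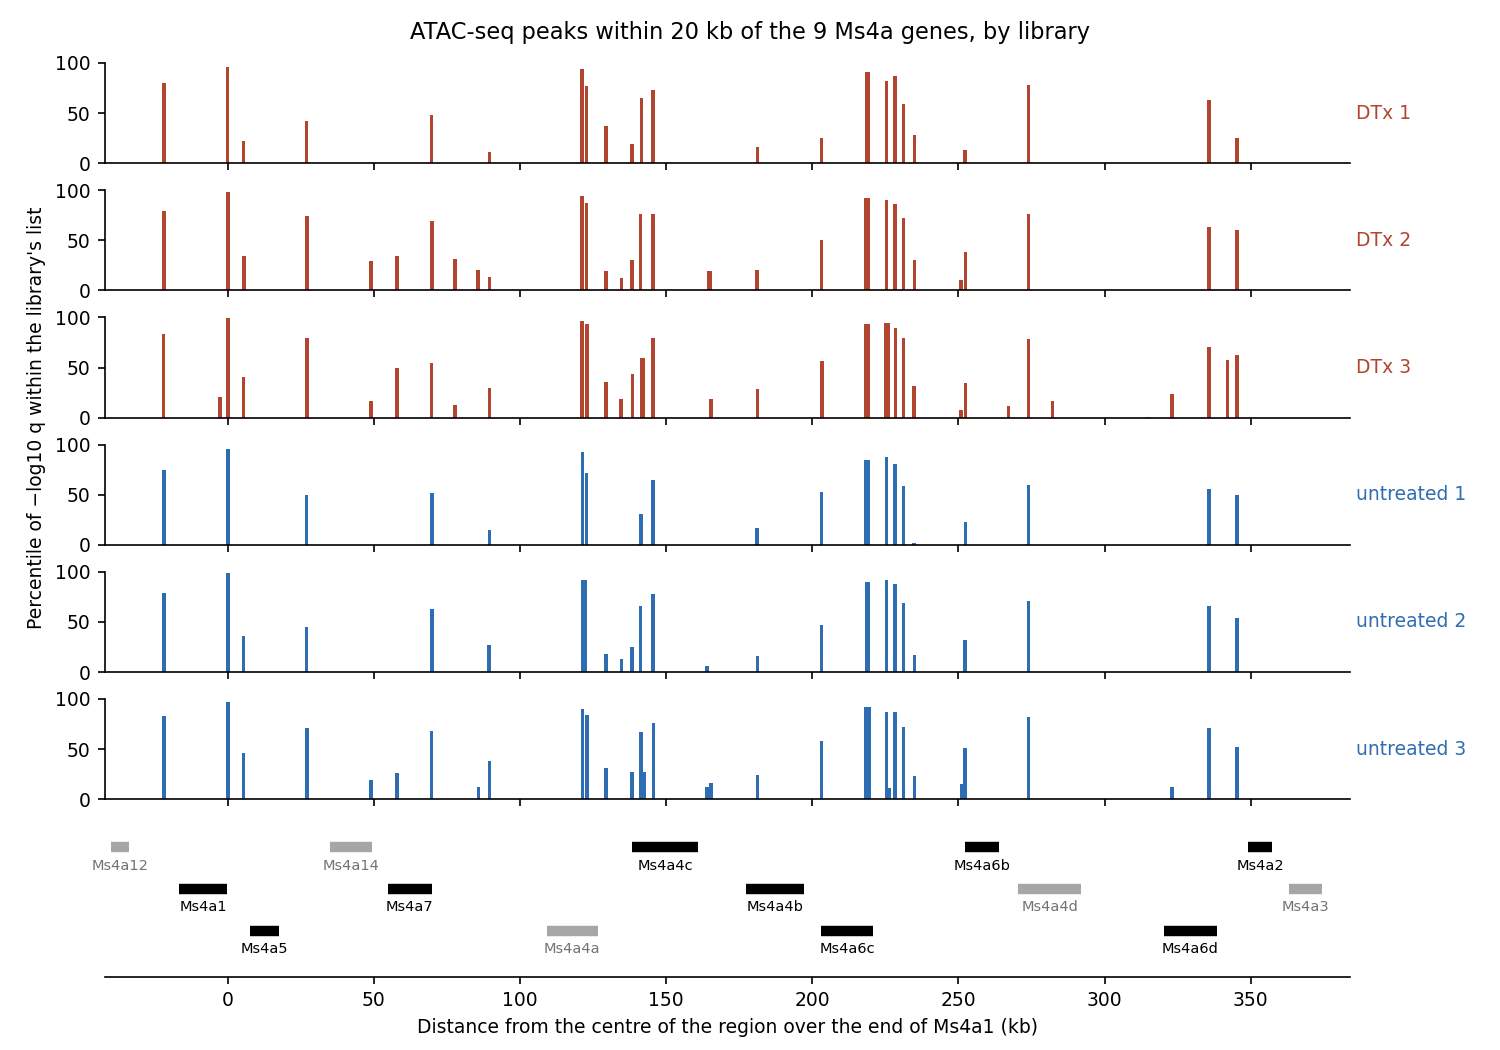
Peaks of each library (panels, DTx above untreated) by distance in kb from the centre of the region over the end of Ms4a1; bar height is the percentile of −log10 q within the library's list, and narrow peaks are drawn at a minimum width. Black bars below are the 9 genes and grey bars other Ms4a genes. The tallest bar in all 6 panels stands at the end of Ms4a1, between the 96.0th and 99.2nd percentile.

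Ms4a1, which encodes CD20, carried the peak of highest rank in the cluster in 6 of 6 libraries. It lay over the higher-coordinate end of the gene, in a union region of 946 bp at chr19:11265884-11266829, which also lies in the body of the overlapping gene 4930526L06Rik. Strand and exons are not in the gene table, so this end was not called a promoter. Ranks are within-list percentiles of −log10 q, the share of a list's peaks at or below that value. The percentile was 96.5, 98.2 and 99.2 in the DTx libraries and 96.0, 98.3 and 97.2 in the untreated libraries. The groups overlapped, and 506 to 1572 peaks of the same list ranked above it in the DTx libraries, against 708 to 1557 in the untreated libraries. The gene-end peaks of these 8 B lineage markers, among them Cd79a, whose product signals for the B cell receptor, and the transcription factor genes Pax5 and Ebf1, ranked below it in every library. The gene-end peak of the T cell marker Cd3d ranked above those of the 8 in every library. In untreated 3 it also ranked above the Ms4a1 end, at 97.54 against 97.24. The Ms4a1 peak was 823, 895 and 906 bp wide in the DTx libraries and 827, 866 and 946 bp in the untreated libraries. In both lists with a summit column, DTx 1 and untreated 3, the summit lay 146 bp outside the gene.

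The caller's fold enrichment, the authors' ratio over background for a peak, gave another order. It was 15.4 in DTx 1 and 14.0 in untreated 3, the narrow-mode lists, and between 7.50 and 8.28 in the 4 broad-mode lists. Its percentile by fold was 83.5, 91.3 and 93.8 in the DTx libraries, against 91.6, 91.4 and 77.0 in the untreated libraries. By fold the Ms4a1 end was first in the cluster in untreated 1 only. A region in the body of Ms4a4d led in DTx 1 and untreated 3, one 9078 bp above Ms4a5 in DTx 2 and DTx 3, and one in Ms4a6d in untreated 2. The peak's pileup, the authors' read coverage, was 315, 197 and 314 in the DTx libraries and 77.9, 165 and 573 in the untreated libraries, so the groups overlapped there too. By mode the direction differed. In the broad-mode lists it was 197 and 314 in DTx against 77.9 and 165 in untreated libraries. In the narrow-mode lists it was 315 in DTx 1 against 573 in untreated 3. Pileup also depends on depth, which is unknown.

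Within a library, the highest percentile of Ms4a1 was set against the highest of any of the other 8 genes, each peak going to its nearest gene of the 9. Ms4a1 averaged 97.6 ± 1.21 and the highest of the others 93.5 ± 1.69 (SD, n = 6 libraries). The difference was 4.09 percentile points, with Ms4a1 higher in 6 of 6 libraries (exact two-sided sign-flip permutation test, p = 0.031, the smallest it can give, and 0.031 after adjustment over the pair of Ms4a1 tests). This rests on 1 peak and on the ranking by q. Ranked by fold enrichment the difference was −2.35 (exact permutation p = 0.5). In an alternative chosen after seeing the data, the gene-end peak of Ms4a1 was left out and the other 8 genes kept all their peaks. The difference was then −13.7, and no test is drawn from it, since the leading peak was removed on 1 side only. With all peaks ranked by q, Ms4a1 stayed higher in the broad-mode lists (4.15) and in the narrow-mode lists (3.97), where 4 and 2 libraries allow no p below 0.125 and 0.5.

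The number of peaks gave the opposite order against the mean of the other 8 genes. Each base within 20 kb of the 9 genes went to its nearest gene, which left Ms4a1 with 40329 bp. Ms4a1 had 0.537 ± 0.101 peaks per 10 kb of this stretch, against a mean of 0.749 ± 0.136 for the other 8 genes (SD, n = 6). The difference was −0.212, with Ms4a1 lower than that mean in 6 of 6 libraries (exact sign-flip permutation test, p = 0.031, adjusted 0.031). With windows of 5 kb it was 0.119 in the other direction (exact permutation p = 0.0938), and with lists of equal length −0.0471 (exact permutation p = 0.0938). By region count, single genes lay on both sides of Ms4a1. The regions nearest to each gene numbered 3 at Ms4a1, 7 at Ms4a4c, 6 at Ms4a7 and Ms4a6c, 5 at Ms4a6b and 4 at Ms4a6d. They numbered 2 at Ms4a5 and 1 at Ms4a4b and Ms4a2. The stretches ran from 31049 to 53679 bp, and Ms4a1 was not tested against single genes.

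Beside its gene-end peak, Ms4a1 had a second region called in all 6 libraries, 932 bp wide at chr19:11244051-11244982 and 4697 bp below the gene. Its percentile was 80.3, 79.2 and 83.2 in the DTx libraries and 74.4, 78.7 and 82.6 in the untreated libraries. The only peak wholly inside the gene, 150 bp wide, was called in DTx 3 alone, at the 20.8th percentile. Counting all peaks within 20 kb, Ms4a1 had 3, 3 and 4 peaks in the DTx libraries and 2, 3 and 3 in the untreated libraries. The means of 3.33 ± 0.58 and 2.67 ± 0.58 (SD, n = 3 each) differed by 0.67, and the groups overlapped (exact permutation p = 0.6, and 1 after adjustment over 17233 genes with a peak; 3 libraries against 3 cannot go below 0.1). The broad-mode lists differed by 1 and the narrow-mode lists by 0, and with lists of equal length the means were 2.67 in both groups and the difference 0. The same 6 counts were found at Ms4a5, which shares most of these peaks, and at 27 genes elsewhere in the genome. Among those 27 the nearest in the percentiles of the highest peak were E230025N22Rik, Npr2 and Ccdc138, at distances of 2.91, 3.60 and 4.09 percentile points over the 6 libraries.

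**Figure D2:**
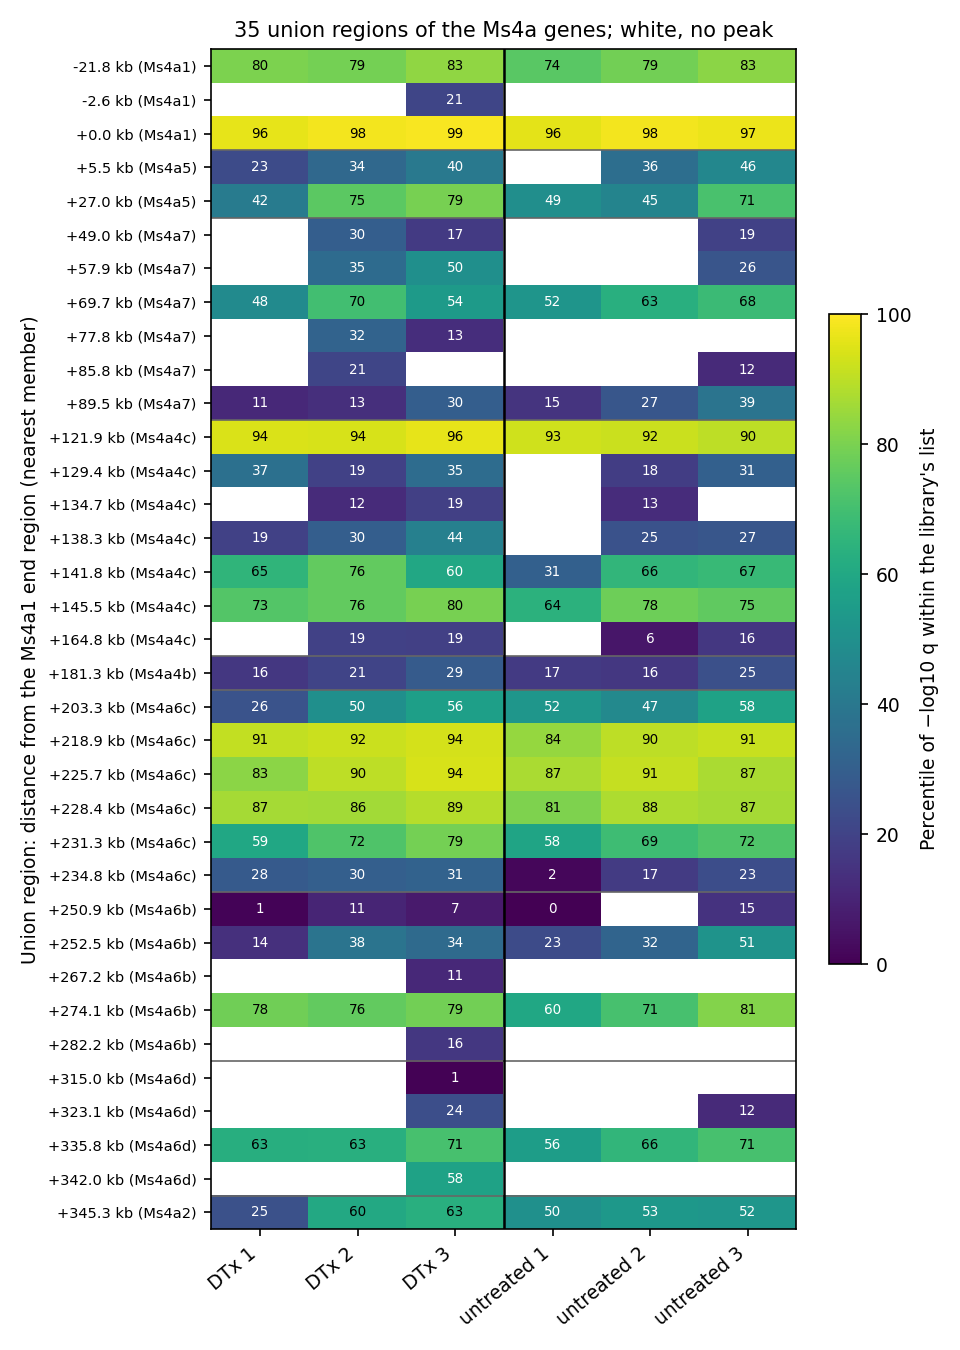
The 35 union regions of the cluster (rows, labelled by distance in kb from the Ms4a1 end region and by the nearest of the 9 genes) in the 3 DTx and 3 untreated libraries (columns); colour and number give the percentile of −log10 q of the library's highest peak, and white means no peak. The rows filled in all 6 columns number 19, and the 5 rows filled in 1 column are all filled in DTx 3.

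Around the genes best known from myeloid cells, open regions were called in every library. Ms4a6c had 6 regions within 20 kb and nearest to it, and all 6 were called in 6 of 6 libraries. The region of highest median rank, 2113 bp wide at chr19:11484185-11486297, lay in the gene and reached within 885 bp of its higher-coordinate end. Its percentile was 90.8, 92.1 and 93.7 in the DTx libraries and 84.4, 90.2 and 91.4 in the untreated libraries. A region 3800 bp above the gene, at chr19:11490982-11493085, ranked 82.5, 90.1 and 93.9 in the DTx libraries and 87.4, 91.3 and 87.1 in the untreated libraries. The groups overlapped for both. This region and the next 3 lie in the body of Gm8369. The lower-coordinate end of Ms4a6c lies inside the promoter window shown above. There the region at chr19:11469330-11470068 was lower, between the 25.7th and 56.3rd percentile in the DTx libraries and between the 47.1st and 57.7th in the untreated libraries.

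Ms4a7 had a peak at its higher-coordinate end, chr19:11335807-11336398, in 6 of 6 libraries, at percentiles of 47.7, 69.7 and 54.5 in the DTx libraries and 52.1, 62.9 and 68.2 in the untreated libraries, and the groups overlapped. The window at chr19:11334646-11334945, a second start site of this gene, lay under no peak. Around Ms4a7 lay the one region that was called in at least 2 more libraries of one group, 159 bp at chr19:11344114-11344272 and 7968 bp from the gene. It was called in DTx 2 (31.7th percentile) and DTx 3 (13.1st percentile) and in none of the untreated libraries, and the lists of DTx 2 and DTx 3 are, with that of untreated 3, the longest. In the genome 7.87% of regions were called in at least 2 more DTx than untreated libraries, against 1 of 35 in the cluster. Ms4a6d had no peak at either end. Its region in 6 of 6 libraries, chr19:11601787-11602463, lay in the gene, 2341 bp from the end, at percentiles of 62.9, 63.1 and 70.8 in the DTx libraries and 55.7, 65.9 and 70.9 in the untreated libraries. Of the myeloid markers, Cd68 alone had a gene-end peak in every library. Itgam had one in 5 libraries and Csf1r in 4, while Lyz2, Mpo, Adgre1 and Csf3r were at 0 in all 6.

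The genes known from T cells differed among themselves. Ms4a6b had a peak at its lower-coordinate end, chr19:11518308-11519442, in 6 of 6 libraries, at percentiles of 13.7, 38.4 and 34.5 in the DTx libraries and 23.0, 32.2 and 51.3 in the untreated libraries, with overlapping groups. A weaker region 960 bp below it, 594 bp wide at chr19:11517006-11517599, was called in 5 libraries and not in untreated 2, with a median percentile of 7.4. Its highest-ranked region, chr19:11540037-11540777, lay in the body of Ms4a4d, at 78.2, 76.1 and 78.8 in the DTx libraries and 59.7, 70.9 and 81.5 in the untreated libraries. Ms4a4b had 1 region of its own, chr19:11447341-11447959 in the gene and 3783 bp from its end. That region was called in 6 of 6 libraries but low in each list, between the 16.0th and 28.8th percentile in the DTx libraries and the 16.2nd and 24.5th in the untreated libraries. Of the T cell markers, Cd3d and Lat had a peak at a gene end in every library, Cd4 in 4 and Cd3g in 1, while Cd3e, Cd8a and Trdc were at 0. Cd3d ranked between the 94.7th and 97.4th percentile in DTx and the 87.4th and 97.5th in untreated libraries. The part of T cells in the values of Ms4a4b and Ms4a6b was not tested.

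Ms4a4c, whose product is less well characterised, had 7 regions, 3 of them in all 6 libraries. The widest region of the cluster, 2458 bp at chr19:11387012-11389469, was nearest to Ms4a4c but lay in the body of Ms4a4a, 15248 bp away. It ranked behind the Ms4a1 end alone in 5 libraries, and in untreated 3 the region inside Ms4a6c also ranked above it. Its percentile was 94.3, 94.0 and 96.1 in the DTx libraries and 92.8, 92.1 and 90.2 in the untreated libraries, all DTx values being higher. The same order was seen at chr19:11500742-11501640, 13560 bp from Ms4a6c and also called in all 6 libraries. Its percentile was 28.3, 30.3 and 31.4 in the DTx libraries and 1.93, 17.4 and 23.5 in the untreated libraries. Percentiles from lists of different length and mode cannot show whether openness changed, so this order was not tested. How many regions of the genome show such an order was not counted. Inside Ms4a4c, the region over the promoter window, chr19:11407342-11409019, had percentiles of 65.3, 76.0 and 59.9 in the DTx libraries and 30.8, 65.9 and 67.2 in the untreated libraries. A further one at chr19:11411483-11412299 had 73.1, 76.0 and 79.6 in the DTx libraries and 64.2, 78.1 and 75.5 in the untreated libraries. The lower-coordinate end of the gene in the table, chr19:11404461-11404949, was under a peak in each DTx library and in untreated 2 and 3, and this stretch is shared with Gm5692.

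Ms4a2 and Ms4a5 had no region inside the gene and no peak at either end in any library. For Ms4a2, the IgE receptor chain, the nearest region lay 3623 bp below the gene at chr19:11611497-11611894. It was called in 6 of 6 libraries at percentiles of 24.8, 60.5 and 62.9 in the DTx libraries and 50.03, 53.4 and 52.4 in the untreated libraries, with DTx 1 the lowest. Of the markers of mast cells and basophils, Hdc alone had a peak at an end, in every library, and the other 6, among them Kit, Fcer1a and Cpa3, were at 0. The Ms4a1 gene-end region lies within 20 kb of Ms4a5 too, but is nearer to Ms4a1. Among regions nearest to Ms4a5 of the 9 genes, the one called in every library was chr19:11292973-11293834, 9078 bp from Ms4a5. Its percentiles were 41.7, 74.7 and 79.4 in the DTx libraries and 49.5, 45.3 and 71.2 in the untreated libraries. A second region, at chr19:11271666-11272033 between Ms4a1 and Ms4a5, was called in all but untreated 1.

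**Figure D3:**
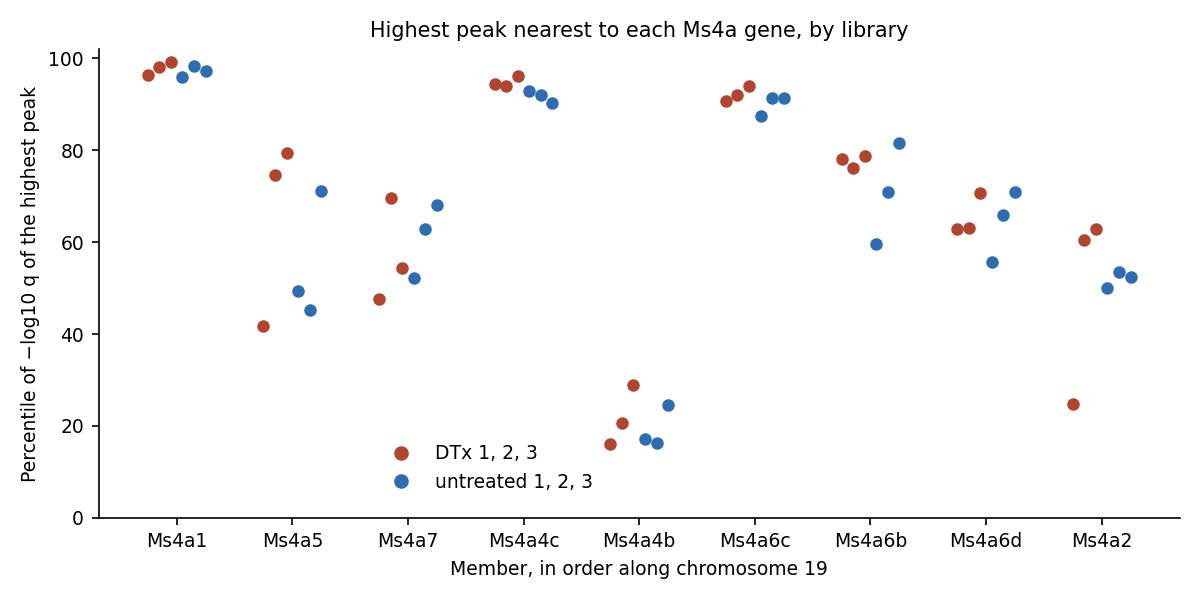
Percentile of −log10 q (0 to 100) of the highest peak nearest to each of the 9 genes, in order along the chromosome; each point is 1 library, with DTx 1 to 3 left of untreated 1 to 3. Ms4a1, Ms4a4c and Ms4a6c lie at or above 87.4 in all 6 libraries and Ms4a4b at or below 28.8. The peaks of Ms4a4c and Ms4a6b lie in the bodies of Ms4a4a and Ms4a4d. The groups overlap at each gene but Ms4a4c, and how many genes of the genome show no overlap was not counted.

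Each gene's leading region was taken from the regions nearest to it. By the median percentile of that region over the 6 libraries, Ms4a1 stood at 97.7, ahead of Ms4a4c at 93.4 and Ms4a6c at 91.1. Ms4a6b followed at 77.1, Ms4a6d at 64.5, Ms4a5 at 60.3, Ms4a7 at 58.7, Ms4a2 at 52.9 and Ms4a4b at 18.9. The leading region of Ms4a4c lay in the body of Ms4a4a and that of Ms4a6b in Ms4a4d. That of Ms4a5 was nearer to Ms4a14, 7415 bp away. Among regions overlapping the gene itself, the highest median was 75.7 at Ms4a4c and 33.3 at Ms4a6b. The range of the leading region overlapped that of the next gene in this order in every step but 1, between Ms4a6c (lowest 84.4) and Ms4a6b (highest 81.5). The order depends on giving each region to its nearest gene. With all regions within 20 kb counted, regions nearer to a neighbour led at Ms4a5 (97.7), Ms4a2 (64.5) and Ms4a4b (51.2). Gene-end peaks were called in all 6 libraries at Ms4a1, Ms4a7, Ms4a6c and Ms4a6b, 4 of the 9 genes, against 49.2% of all protein-coding genes. Ms4a4c had one in 5 libraries and the other 4 genes in none. Of the 12 other Ms4a genes in the table, 0 had a peak at an end in every library, Ms4a19 had one in 5 and Ms4a14 in 3, and 10 had none.

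Most regions of the cluster lay away from gene ends: 7 of 35 were within 1 kb of an end of one of the 9 genes, 13 overlapped one of their bodies, 4 lay in the body of another Ms4a gene and 18 lay between Ms4a genes. Regions called in 6 of 6 libraries numbered 19 of 35 (54.3%), beside 44.1% of all regions of the genome. The other 16 were called in 1 library (5 regions), 2 (3), 3 (3), 4 (1) or 5 (4). All 5 regions of a single library were in DTx 3, which has the longest list, and 5 more were called only in 2 or 3 of the 3 longest lists. The median width was 594 bp in the cluster and 558 bp in the genome.

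Between the groups, no region of the cluster was called in all libraries of one and none of the other. Regions under a peak in 3 of 3 DTx lists and 0 of 3 untreated lists numbered 0 of 35, beside 0.705% in the genome, and regions in 0 of 3 DTx lists and 3 of 3 untreated lists also 0 of 35, beside 0.0242%. More DTx than untreated libraries had a peak in 13 of the 35 regions (36.4% in the genome), fewer in 0 (8.80% in the genome), and 22 were equal. The DTx lists were longer on average. With every list reduced to its 36760 peaks of highest −log10 q, the cluster had 25 regions, of which 3 were called in more DTx than untreated libraries (18.4% in the genome) and 5 in fewer (19.8%). In those lists 1 region was under a peak in 0 of 3 DTx lists and 3 of 3 untreated lists, chr19:11355605-11356174, 19459 bp from Ms4a7, which is 1 of 25 beside 0.578% in the genome. In the deposited lists it was under a peak in all 6 libraries, at percentiles of 11.4, 13.3 and 29.8 in the DTx libraries and 14.9, 26.7 and 38.5 in the untreated libraries. Within the broad-mode lists 3 of 35 regions were called in both DTx libraries and neither untreated one, beside 12.4% in the genome. Of the 2 narrow-mode lists, untreated 3 alone had 8 of 32 regions, beside 26.5% in the genome. Without DTx 1, the region near Ms4a7 called in DTx 2 and DTx 3 was DTx-only, 1 of 35 beside 3.95% in the genome.

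The cluster held 24, 30 and 35 peaks in DTx libraries 1, 2 and 3, against 21, 24 and 32 in untreated libraries 1, 2 and 3. The means were 29.7 ± 5.51 and 25.7 ± 5.69 (SD, n = 3 each), a difference of 4, and the groups overlapped (exact permutation p = 0.5). The order followed list length, with the fewest peaks in the shortest list and the most in the longest. Within the broad-mode lists the DTx libraries had 10 more peaks and within the narrow-mode lists DTx 1 had 8 fewer than untreated 3, so the direction did not hold within modes. Per 1000 listed peaks, a scaling chosen after seeing the data, the values were 0.537, 0.533 and 0.576 in the DTx libraries and 0.571, 0.565 and 0.566 in the untreated libraries, a difference of −0.0187 (exact permutation p = 0.4).

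The peaks covered 12897, 17776 and 23394 bases in the DTx libraries and 11600, 14392 and 19257 in the untreated libraries. The means of 18022 ± 5253 and 15083 ± 3875 bases (SD, n = 3 each) differed by 2939 bases with overlapping groups (exact permutation p = 0.6). The difference was 7589 bases within the broad-mode lists and −6360 within the narrow-mode lists. With lists of equal length the means were 13261 bases in DTx and 12943 bases in untreated libraries, a difference of 318 (exact permutation p = 0.8).

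**Figure D4:**
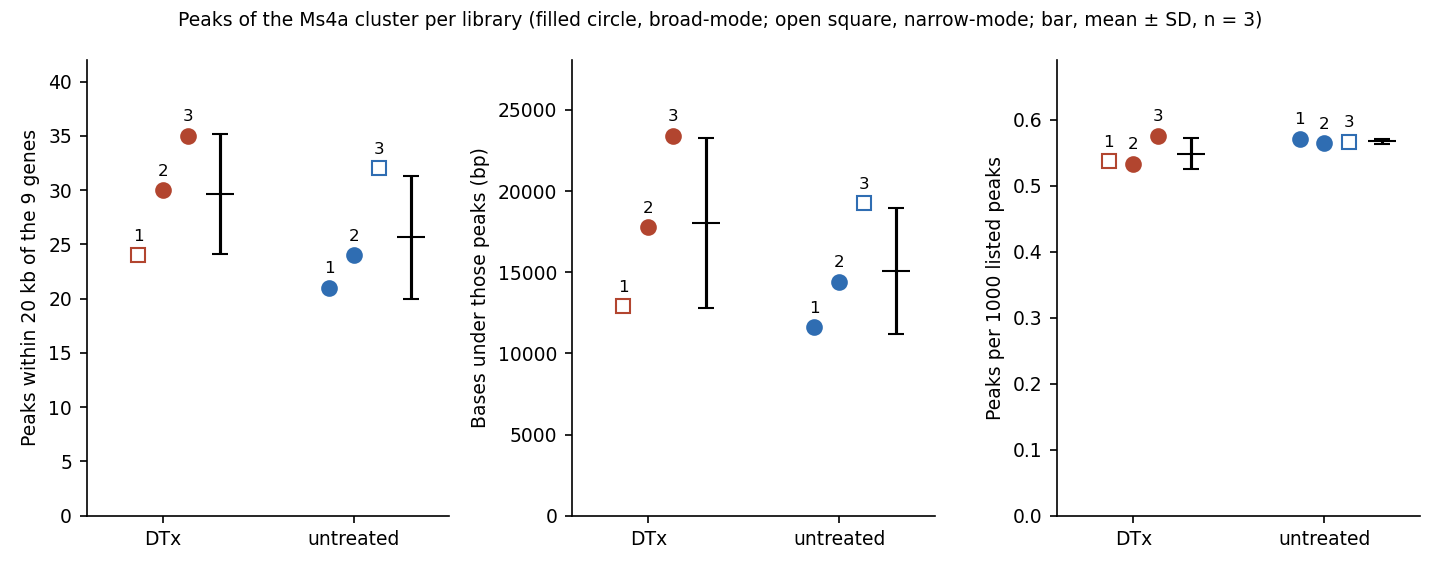
Peaks within 20 kb of the 9 genes (left), bases under those peaks (middle) and peaks per 1000 listed peaks (right) in the 3 DTx and 3 untreated libraries. Each symbol is 1 library with its replicate number, circles broad-mode and squares narrow-mode lists, and bars give mean ± SD. The groups overlap in all panels, from 24 to 35 peaks in DTx and 21 to 32 in untreated libraries in the left one.

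No gene of the 9 had peak numbers that were higher in every DTx than in every untreated library, or lower in every one, beside 2.18% and 0.0232% of the 17233 protein-coding genes with a peak. The largest difference was at Ms4a7, with 2, 6 and 5 peaks in the DTx libraries and 2, 2 and 5 in the untreated libraries (difference 1.33, exact permutation p = 0.7), and it was 3.5 within the broad-mode and −3 within the narrow-mode lists. Ms4a4c, the gene with most peaks, had 6, 8 and 8 in the DTx libraries and 4, 7 and 9 in the untreated libraries. Ms4a6c had 6, 6 and 6 in the DTx libraries and 6, 6 and 7 in the untreated libraries, and Ms4a2 had 2, 2 and 3 in the DTx libraries and 2, 2 and 2 in the untreated libraries, so 1 library differed from the others at each. Over the 9 genes the differences ranged from −0.33 to 1.33 with a median of 0.67, beside a median of 0.33 over all genes tested, and adjusted p was 1 for each. The other 12 Ms4a genes had a median difference of 0.17, and the groups overlapped at each of them.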

How the data were processed

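ATAC-seq peak lists of 6 libraries, 3 DTx and 3 untreated, were used. Per the submitters' processing notes, the tools were Trim Galore 0.4.3, Bowtie2 2.3.2 and MACS2 2.1.1 with the mm10 build; how the Tn5 shift, duplicates and multiply mapped reads were treated is not given in the sources used here. Per the file headers, each deposited list gives a peak's pileup, a read coverage signal, and its fold enrichment, a ratio over background. The authors' −log10 p-value and q-value columns have damaged headers and were identified by order and values. The deposited lists with a summit column (DTx 1, untreated 3) had a lowest −log10 q of 1.30 and 1.33 and the others of 1.00 to 1.02.

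Each list's 2 mitochondrial peaks were dropped. Peaks touching a gene or its 20 kb were merged across libraries, and 1 bp of overlap placed a library in a region. Genes came from the RefSeq table of GRCm38.p6, the same build, in which all 9 symbols matched. Values per library were compared by exact two-sided permutation over the 20 relabellings, and Ms4a1 with the other genes by exact sign flips over 6 libraries. The counting of peaks was checked on simulated lists, and both tests on short made-up series of values. p-values per gene were adjusted (Benjamini-Hochberg) over all genes with a peak. Alternatives were other windows, equal-length lists, −log10 q of at least 5, region overlap, ranking by fold, each list mode, each library left out and the replicate block. Named regions were, per gene, the one called in most libraries among those nearest to it, and those within 1 kb of a gene end. Regions differing by at least 2 libraries were also named. Other regions and the second Ms4a7 window were added after their values were seen. Of the listed B lineage markers, 1 is not reported here. The genes, lists and tests were chosen with earlier results of these data known. Promoter pairs were aligned with Biopython 1.88; other steps used Python 3.11.15, NumPy 2.4.6, pandas 2.3.3 and SciPy 1.17.1.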

Additional observations from a re-analysis of the deposited data

How the results depend on the processing

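The higher percentile of Ms4a1 than of the other genes held with windows of 5 kb (6.41) and with equal-length lists (5.55). It was reversed when ranked by fold enrichment (−2.35). In an alternative chosen after seeing the data, it was −13.7 with the gene-end peak of Ms4a1 left out and the peaks of the other genes kept. In the broad-mode lists it was 4.15, in the narrow-mode lists 3.97 and with each library left out 3.67 to 4.48, where 5 libraries allow no p below 0.0625. The lower peak density of Ms4a1 than the mean of the other genes was reversed with windows of 5 kb (0.119) and smaller and no longer past 0.05 with equal-length lists (−0.0471) and with −log10 q of at least 5 (−0.117). In the broad-mode lists (−0.182), in the narrow-mode lists (−0.270) and with each library left out (−0.238 to −0.179) it kept its direction, and there 4, 2 or 5 libraries allow no p below 0.05. The difference in cluster peaks, DTx minus untreated, was reversed with equal-length lists (−1.33), in the narrow-mode lists (−8) and per 1000 listed peaks (−0.0187), and ranged from 1.33 to 7.17 with each library left out, lowest without DTx 3 and highest without untreated 3. The difference in covered bases was reversed in the narrow-mode lists (−6360), fell to 318 with equal-length lists and ranged from 253.5 without DTx 3 to 5502 without DTx 1. For Ms4a1 peaks that range was 0.33 to 0.83, and the difference was 0 with equal-length lists. DTx-only regions numbered 3 in the broad-mode lists (12.4% of regions in the genome), 1 without DTx 1 (3.95%) and 0 with any other library left out; untreated-only regions numbered 1 with equal-length lists (0.578%), 8 in the narrow-mode lists (26.5%) and 0 with each library left out. The cause of these shifts was not tested. Same-numbered libraries did not deviate together in all pairs (r of 0.187, 0.0583 and −0.0751 over 30954 regions, beside 0.357 for DTx 3 with untreated 2), so the numbers were not taken to pair them. With the replicate block the exact permutation p was 0.25 for cluster peaks (4), 0.25 for bases (2939) and 0.5 for Ms4a1 peaks (0.67), where 3 pairs allow none below 0.25. Without read totals, and with lists of different length and mode, a region absent from a list is not shown to be closed.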
